A study of Drosophila melanogaster with 15 samples.

Results

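Mitochondrial ribosomal proteins build the ribosome that works inside mitochondria. In animals this ribosome translates the few messenger RNAs made from mitochondrial DNA, all of which encode core subunits of the oxidative phosphorylation complexes, while the ribosomal proteins themselves are encoded in the nucleus, made in the cytosol and imported. The large subunit forms peptide bonds and holds the exit tunnel, and the small subunit binds and decodes the messenger RNA. The genes of the family were taken as all probe sets on the array whose annotated symbol starts with mRpL (large subunit) or mRpS (small subunit). This gave 71 of 18769 probe sets, standing for 69 of 11982 named genes, of which 44 encode large subunit proteins and 25 encode small subunit proteins. RefSeq lists 73 such symbols. The probe sets of mRpL53 and mRpS10 also match another gene and were left out, and mRpL34 and mRpL37 were not analysed here. A symbol places a protein by its name, and in mammalian mitochondrial ribosomes the counterparts of mRpS30 and mRpS18A sit in the large subunit.

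RNA was taken from whole adult males aged 3 to 5 days of Canton-S B, a wild-type isogenic strain of Drosophila melanogaster, in pools of 30 flies, with 5 pools and 5 Affymetrix arrays per treatment. Control flies were not exposed to ethanol. Flies of the 1st exposure were frozen after 1 passage through an inebriometer, a column of ethanol vapour from which intoxicated flies fall, and flies of the 2nd exposure passed through it again after 2 h of recovery. The groups after exposure held only flies that eluted at 3 to 5 min on the 1st passage and at 7 to 10 min on the 2nd, and the 2nd exposure cannot be told apart from the 2 h between samplings. The question for the family was whether its transcripts differed in abundance after 1 or 2 exposures. In RNA from whole flies, fewer cells of a type and less RNA per cell cannot be told apart.

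The unit of measurement was the MAS 5.0 Signal, a linear intensity per probe set that the authors scaled to a common target on every array. The methods call that target a median, whereas in the deposited values it was the mean trimmed by 2% at each end that was nearly equal, at 498.2 to 499.36, and the array medians were 128.6 to 140.3. Arrays carry no read depth, and precision depends on their number and on the spread of a probe set's values between them. Array 5 of the 2nd exposure stood apart from its male label. Its Signal for the yolk protein gene Yp1 was 2521, against at most 72.9 on the other 14 arrays, and the summed Signal of 7 ovary and yolk markers was 6452.2 there, against 150 to 373.4 elsewhere. Of those markers the eggshell gene Vm26Aa was also high on that array, at 485.2, against at most 34.5 elsewhere, whereas Cp36 and Cp38 were not, at 8.4 and 5.1. Markers of flight and body muscle, tissues rich in mitochondria, varied widely between arrays. The summed Signal of 6 muscle markers spanned 36581 to 53157 in control flies, 26001 to 52276 in flies of the 1st exposure and 34475 to 82362 in those of the 2nd, with the highest sums on arrays 4 and 5 of the 2nd exposure.

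All 71 probe sets of the family passed the filter on low values, a mean Signal of at least 20, with mean Signals from 166 for mRpL54 to 2911 for mRpS5 and a median of 533.3. None of them passed the test for a difference between treatments. In limma's moderated test with Benjamini-Hochberg adjustment over 13809 probe sets, 0 of 71 passed the adjusted threshold of 0.05 between the 1st exposure and control, where 0.362% of all probe sets passed. The counts were also 0 of 71 after the 2nd exposure against control (3.63% of all probe sets), 0 of 71 between the 2nd and the 1st exposure (1.76%) and 0 of 71 in the F test over the 3 treatments (3.61%). At an unadjusted p under 0.05 the numbers were 5, 7, 7 and 6 probe sets in these 4 tests, or 7.04%, 9.86%, 9.86% and 8.45%, against 10.5%, 16.4%, 15.6% and 17.8% of all probe sets. An ordinary analysis of variance on linear Signal also called 0 members in each of the 3 contrasts, against 0.311%, 4.12% and 2.03% of all probe sets, with 6, 10 and 9 members (8.45%, 14.1% and 12.7%) at an unadjusted p under 0.05, against 10.2%, 17.1% and 15.8% of all. In both analyses the members' shares were below those of all probe sets in each contrast. By direction, all 7 were lower in both contrasts of the 2nd exposure, where 6.74% of all probe sets were lower at that threshold against control and 4.56% against the 1st exposure. These shares depended on the scaling: with the arrays' medians made equal, the members at an unadjusted p under 0.05 numbered 6, 17 and 31 in the 3 contrasts (8.45%, 23.9% and 43.7%), against 12%, 18.1% and 21.6% of all probe sets, and so stood above all probe sets in both contrasts of the 2nd exposure.

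The measurements limited how large an undetected difference could be. Log2 fold changes of the members ran from -0.21 to 0.23 after the 1st exposure against control, from -0.34 to 0.19 after the 2nd exposure against control, and from -0.29 to 0.14 between the 2nd and the 1st exposure. The 95% interval lay within 1.5-fold in either direction for 70 of 71 probe sets in each contrast and within 2-fold for all 71, whereas 74.7%, 71.9% and 72% of all tested probe sets had an interval within 1.5-fold in the same 3 contrasts. The exception in both contrasts with control was mRpL52, and between the exposures it was mRpL54. The median standard error of a log2 fold change was 0.0807 for the members and 0.113 for all tested probe sets.

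**Figure D1:**
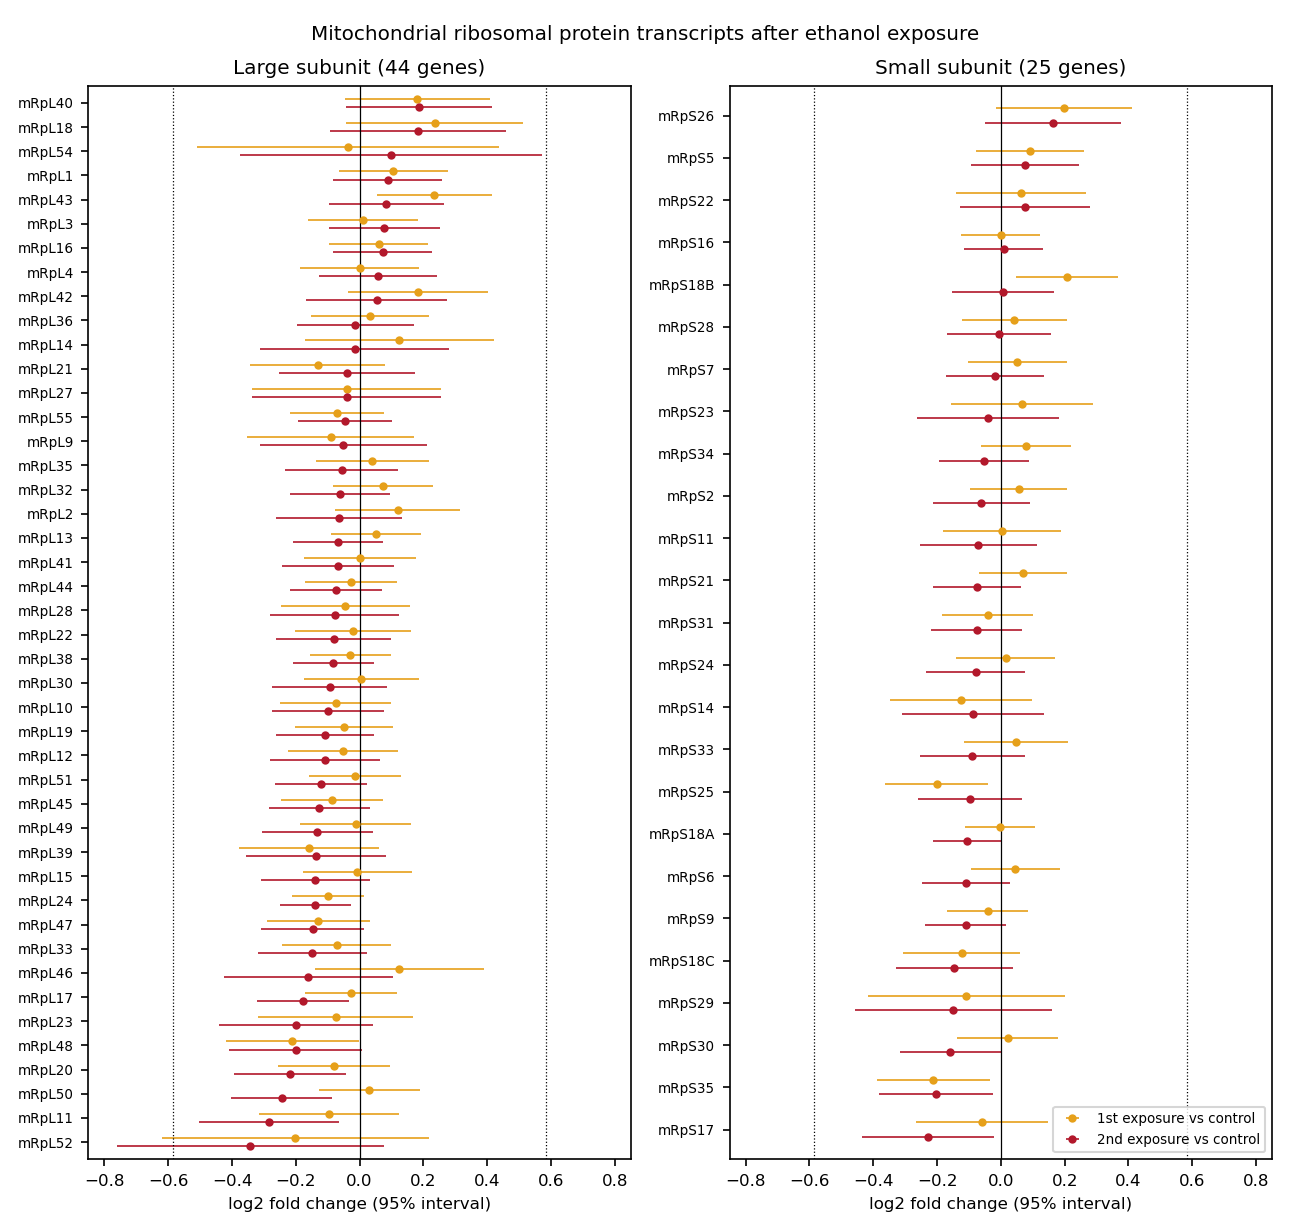
Log2 fold change of Signal with its 95% interval (horizontal axis) for 44 large subunit genes and 25 small subunit genes, after the 1st exposure (orange) and the 2nd exposure (red), each against control, in order of the 2nd exposure value. Dotted lines mark 1.5-fold, and only mRpL52 has intervals that reach past them, while most points of the 2nd exposure lie left of 0.

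Although no gene passed the test, the direction of the small differences was uneven after the 2nd exposure. Of the 71 probe sets, 38 (53.5%) had a log2 fold change below 0 after the 1st exposure against control, where 56.8% of all tested probe sets did. Without control array 2 the count was 29 (40.8%), against 57% of all, and with equal array medians it was 19 (26.8%), against 39% of all. After the 2nd exposure against control 57 (80.3%) were below 0, where 50.1% of all tested probe sets were, and between the 2nd and the 1st exposure 56 (78.9%) were below 0, against 43% of all. With equal array medians these counts were 59 (83.1%) and 69 (97.2%), against 58.7% and 64.3% of all, and without control array 2 the count against control was 50 (70.4%), against 51% of all. Members of the family varied together between arrays, so these are not independent counts and no test was made of them. Both subunits had the same sign after the 2nd exposure. With 1 probe set per gene, the median log2 fold change after the 2nd exposure against control was -0.08 for the large subunit (35 of 44 genes below 0) and -0.08 for the small subunit (20 of 25), with a median of -0.00 over all tested probe sets. After the 1st exposure against control the medians were -0.02 and 0.02 for the large and the small subunit, and -0.02 over all tested probe sets, and the large subunit's was 0.02 without control array 2 and 0.00, just above 0, without array 1 of the 1st exposure. Between the 2nd and the 1st exposure they were -0.06 and -0.07, against 0.03, and leaving out single arrays moved them within -0.09 to -0.03 and -0.10 to -0.04.

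These shifts were of the size of the spread between single arrays, whereas a difference between means of 5 arrays each varies less than a single array. The median log2 Signal of the 44 large subunit genes, relative to the control mean, was -0.03, 0.11, 0.02, -0.01 and -0.06 on the 5 control arrays, -0.12, 0.11, -0.06, 0.06 and -0.02 after the 1st exposure, then -0.19, -0.10, -0.08, -0.06 and -0.02 after the 2nd. The 5 values of the 2nd exposure were all below 0 and overlapped the lower control arrays. The median of the 25 small subunit genes was -0.01, 0.09, 0.02, 0.01 and -0.06 on control arrays, -0.03, 0.09, -0.07, 0.10 and 0.05 after the 1st exposure, then -0.13, -0.06, -0.01, -0.07 and -0.07 after the 2nd. The groups overlapped here too. The standard deviation of these medians between arrays of a treatment was 0.0735 for the large and 0.0584 for the small subunit. The family's level moved with the muscle markers on several arrays. Control array 2 and arrays 2 and 4 of the 1st exposure, with muscle sums of 53157, 51674 and 52276, had the 3 highest large subunit medians. Arrays 4 and 5 of the 2nd exposure, with higher muscle sums of 82362 and 65526, did not, though their large subunit medians were the highest within the 2nd exposure. Their small subunit medians, at -0.07 and -0.07, were below those of arrays 2 and 3 of the 2nd exposure, at -0.06 and -0.01. Array 5 of the 1st exposure had a muscle sum of 49374, a large subunit median of -0.02 and a small subunit median of 0.05. The part of tissue make-up in the family's level was not tested. Without array 5 of the 2nd exposure, 56 of 71 members (78.9%) were below 0 after the 2nd exposure against control, where 48.8% of all tested probe sets were. The medians in that setting were -0.11 for the large and -0.08 for the small subunit. In the same contrast 0 members passed the test, where 2.68% of all tested probe sets did.

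**Figure D2:**
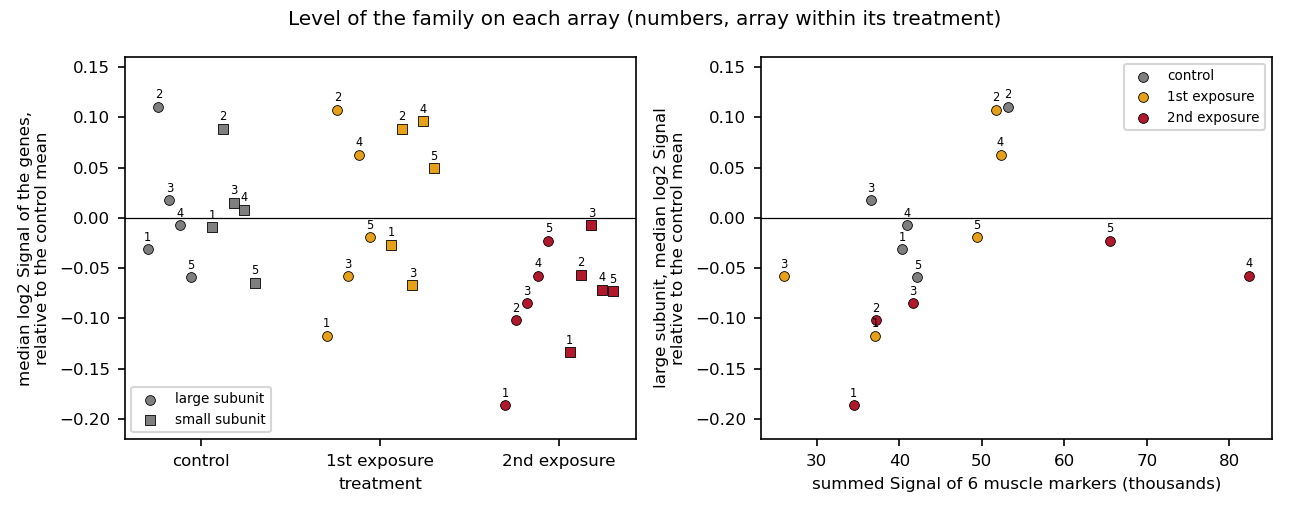
Left, median log2 Signal of 44 large subunit genes (circles) and 25 small subunit genes (squares) on each array relative to the control mean, by treatment; right, the large subunit values against the summed Signal of 6 muscle markers. Every 2nd exposure array lies below 0, and arrays 4 and 5 of the 2nd exposure have the highest muscle sums at large subunit medians of -0.06 and -0.02.

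In both contrasts of the 2nd exposure the smallest adjusted p of the family belonged to mRpL50, a protein of the mitochondrial ribosome with no bacterial namesake. Its Signal was 282.4, 327, 363.5, 284.1 and 323.3 on control arrays, 322, 321.7, 302.3, 338.3 and 323.5 after the 1st exposure, then 285.4, 261.4, 278.6, 240.2 and 264.5 after the 2nd. All 5 values of the 2nd exposure were below all 5 of the 1st, and they overlapped the control arrays through control arrays 1 and 4. The log2 fold change was -0.28 ± 0.0742 (SE, n = 5 each) between the 2nd and the 1st exposure, with an adjusted p of 0.0832 in limma, and -0.24 ± 0.0742 for the 2nd exposure against control, with an adjusted p of 0.0899. mRpL50 was the only member whose arrays did not overlap between the 2 exposures (1 of 71, or 1.41%, against 4.87% of all tested probe sets in either direction and 1.48% lower).

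In the contrast of the 2nd exposure with control, 2 of 71 members (2.82%) had arrays that did not overlap, against 5.45% of all tested probe sets, and both were lower after exposure, as were 2.05% of all. They were mRpL20 and mRpL24, whose bacterial namesakes bind ribosomal RNA early in the assembly of the large subunit, and mRpL24 is named because its values were seen to separate. mRpL20 had a Signal of 442.4, 497.3, 520.2, 443.4 and 502.7 after the 2nd exposure, against 607.9, 595.4, 521.9, 547.7 and 524.4 in control flies, a log2 fold change of -0.22 ± 0.0819 (SE) with an adjusted p of 0.185 in limma. The highest exposed array and the lowest control array differed by little. mRpL24 had 664.7, 698.6, 742.9, 739.6 and 730.6 after the 2nd exposure, against 759.6, 808.8, 797.3, 774 and 794.2 in control flies, a log2 fold change of -0.14 ± 0.0523 with an adjusted p of 0.188 in limma. Its 1st exposure arrays, at 756, 795.6, 691.8, 720.8 and 712.8, overlapped the ranges of both other treatments. After the 1st exposure against control, 0 of 71 members had arrays that did not overlap, against 2.8% of all tested probe sets.

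**Figure D3:**
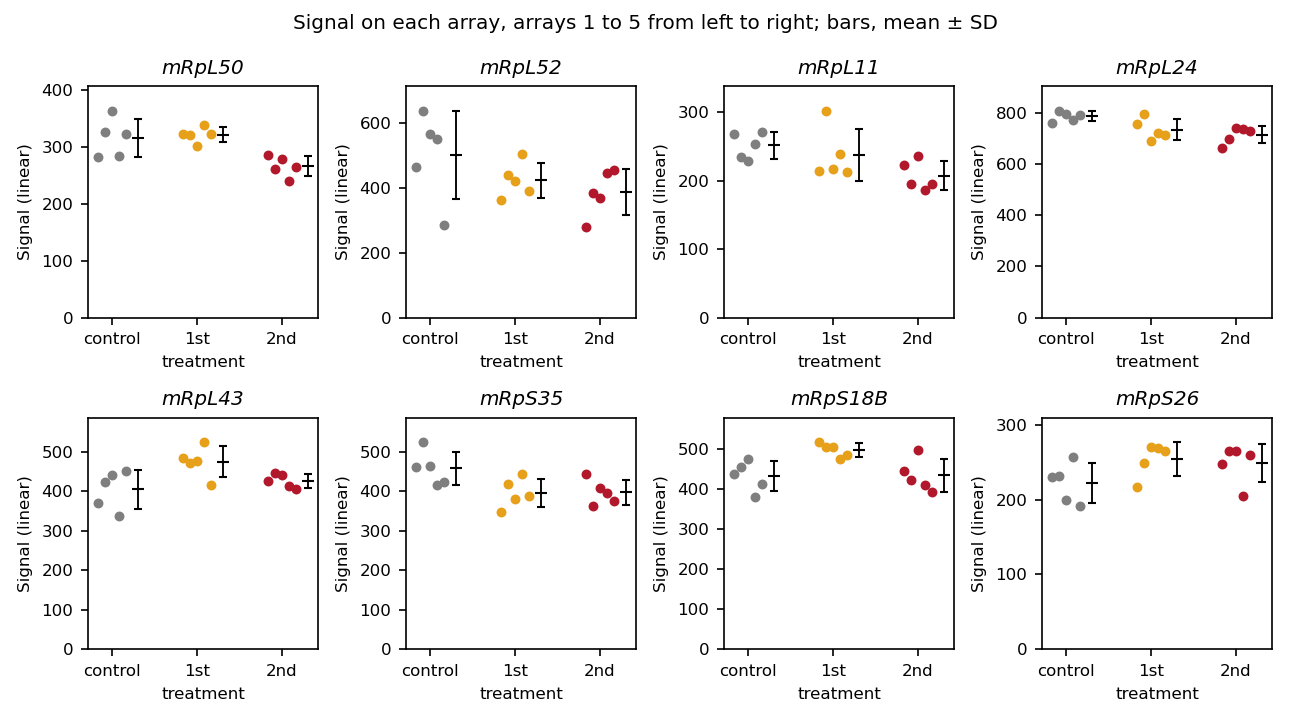
Signal on each array (vertical axis, linear, from 0) for 8 members, with arrays 1 to 5 from left to right in control flies (grey) and after the 1st (orange) and the 2nd exposure (red), and bars for the mean ± SD (n = 5). The 2nd exposure arrays of mRpL50 lie below those of the 1st exposure and those of mRpL24 lie below control, while the other 6 genes shown overlap between treatments.

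The lowest log2 fold changes of the large subunit after the 2nd exposure against control were those of mRpL52 (-0.34 ± 0.195, SE) and mRpL11 (-0.28 ± 0.102), neither past the threshold in limma (adjusted p 0.419 and 0.164). mRpL52 was the least evenly measured of the pair: its Signal in control flies was 464, 636, 564, 549.1 and 286.2, beside 361.6, 437.5, 419.2, 504.5 and 388.6 after the 1st exposure, then 279.9, 384.7, 367.9, 445.5 and 452.5 after the 2nd. Control array 5 was nearly as low as the lowest exposed array, the interval for the 2nd exposure ran from -0.76 to 0.08, and without that control array the log2 fold change was -0.53. mRpL11, whose bacterial namesake lies at the base of the stalk that contacts translation factors, had a control Signal of 268.9, 234.8, 229.1, 254.3 and 271.8, beside 214.3, 302.1, 217.3, 238.3 and 213 after the 1st exposure, then 223.4, 194.5, 235.9, 187.1 and 195.5 after the 2nd. Only array 3 of the 2nd exposure reached the control range.

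On the other side, mRpL40, mRpL18, mRpL54 and mRpL1 had the highest values of the large subunit after the 2nd exposure against control. mRpL40, placed at the central protuberance in mammalian mitochondrial ribosomes, averaged 370.7 ± 34.2 after the 2nd exposure and 328.7 ± 60.1 in control flies (SD, n = 5 each), a log2 fold change of 0.19 with an interval from -0.04 to 0.42. mRpL18, whose bacterial namesake binds 5S ribosomal RNA, averaged 444.2 ± 29.4 after the 2nd exposure and 392.2 ± 40.9 in control flies, a log2 fold change of 0.18 with an interval from -0.09 to 0.46. Both intervals included 0. mRpL54 was the most uneven member, with a control Signal of 87.1, 198.8, 231.7, 192.6 and 133.7, and its log2 fold change of 0.10 ± 0.22 (SE) became negative without array 5 of the 2nd exposure (-0.01) or without control array 1 (-0.12), and was 0.18, 0.23, 0.17 and 0.036 without control arrays 2, 3, 4 and 5. mRpL1, named after the bacterial protein of the stalk near the exit site for transfer RNA, averaged 404.1 ± 39.4 after the 2nd exposure and 379.9 ± 32.1 in control flies, with a log2 fold change of 0.09, or 0.057 without control array 4 and 0.040 without array 5 of the 2nd exposure.

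After the 1st exposure the extremes of the large subunit were mostly other genes. mRpL18 had 425.6, 493.7, 325.5, 550.9 and 544.1 after the 1st exposure, against 389.7, 398.4, 449.2, 389.7 and 334.1 in control flies, a log2 fold change of 0.23 ± 0.129 (SE), with array 3 of the 1st exposure below every control array and a log2 fold change of 0.36 without it. mRpL43, which has no bacterial namesake, had 485.7, 472, 477.9, 524.8 and 416.2 after the 1st exposure, against 371, 423, 442.3, 338.7 and 451.5 in control flies, a log2 fold change of 0.23 ± 0.0841 with an adjusted p of 0.328 in limma. In mRpL43, 4 of 5 exposed arrays lay above all control arrays. mRpL42 and mRpL40 followed with log2 fold changes of 0.18 and 0.18. The lowest were mRpL48 (-0.21 ± 0.097), which like mRpL40 lies in the central protuberance in mammals, mRpL52 (-0.20 ± 0.195), mRpL39 (-0.16 ± 0.102) and mRpL21 (-0.13 ± 0.0987). Leaving out a single array moved some of these by over 1.5 times. mRpL52 was -0.39 without control array 5 and -0.10 without control array 2, mRpL39 was -0.25 without control array 3 and -0.10 without array 1 of the 1st exposure, mRpL21 was -0.20 without control array 5 and -0.081 without control array 1, and mRpL42 was 0.11 without control array 5. mRpL48 averaged 197.8 ± 21.1 after the 1st exposure and 229.4 ± 28.1 in control flies (SD, n = 5 each), and it stayed near that level after the 2nd exposure, at 198.9 ± 16.7.

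In the small subunit, mRpS35 and mRpS25, both without a bacterial namesake, had the lowest log2 fold changes after the 1st exposure against control. mRpS35 had 348.5, 418.3, 380.3, 443.7 and 387 after the 1st exposure and had 444.5, 363.3, 408.5, 395.5 and 376.2 after the 2nd, against 460.5, 524, 464.9, 416.1 and 424.6 in control flies. The 2 exposures gave nearly the same log2 fold change against control, -0.21 ± 0.0828 for the 1st and -0.20 ± 0.0828 for the 2nd (SE, n = 5 each), and neither passed the threshold in limma (adjusted p 0.377 and 0.224). The contrasts share their control arrays. mRpS25 averaged 469.6 ± 45.7 after the 1st exposure and 538.9 ± 36.5 in control flies (log2 fold change -0.20 ± 0.0754), and 503.7 ± 30.2 after the 2nd exposure (-0.10 against control). mRpS14 and mRpS18C followed at -0.12 and -0.12 after the 1st exposure, each with an interval that included 0, and mRpS14 was -0.079 without control array 2 and -0.065 without array 3 of the 1st exposure.

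The highest small subunit values after the 1st exposure were those of mRpS18B and mRpS26. mRpS18B, 1 of 3 members named after the same bacterial protein and read by a probe set type that can match related transcripts, had a control Signal of 438.5, 454.9, 476.8, 380 and 412.3, beside 517.6, 507, 505.2, 474.7 and 484.6 after the 1st exposure, then 446.8, 423.9, 498.6, 410.6 and 393.7 after the 2nd. The 1st exposure arrays were the highest of the 3 treatments except for overlaps with control array 3 and with array 3 of the 2nd exposure. The log2 fold change was 0.21 ± 0.0742 (SE) for the 1st exposure against control, 0.01 ± 0.0742 for the 2nd exposure against control and -0.20 ± 0.0742 between the 2nd and the 1st, with adjusted p-values of 0.328, 0.976 and 0.209 in limma. mRpS26 had 217.1, 249.4, 271, 269.5 and 265.5 after the 1st exposure and had 248.7, 265.4, 265.9, 205 and 259.7 after the 2nd, against 231.2, 231.8, 200.4, 257.4 and 191.4 in control flies, with log2 fold changes of 0.20 ± 0.0989 and 0.16 ± 0.0989 against control. In each treatment at least 1 array lay inside the range of another. mRpS5 and mRpS34 completed the upper end after the 1st exposure, at 0.09 and 0.08. mRpS5 was 0.045 without control array 3, 0.058 without control array 5 and 0.056 without array 4 of the 1st exposure, and mRpS34 was 0.046 without control array 3 and 0.13 without array 1 of the 1st exposure.

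After the 2nd exposure against control the lowest small subunit genes were mRpS17, mRpS35, mRpS30 and mRpS29. mRpS17, whose bacterial namesake is an early binder of small subunit ribosomal RNA, had 464.1, 447.5, 503.9, 509.2 and 493.9 after the 2nd exposure, against 499.3, 579, 608.9, 503.3 and 656.3 in control flies, a log2 fold change of -0.23 ± 0.0965 (SE) with an adjusted p of 0.241 in limma. Control arrays 1 and 4 lay inside the exposed range. mRpS30 averaged 621.7 ± 33.2 after the 2nd exposure and 696.1 ± 71.3 in control flies (SD, n = 5 each), a log2 fold change of -0.16. mRpS29, the counterpart of the human GTP-binding protein DAP3, averaged 355.7 ± 42.3 after the 2nd exposure and 397.8 ± 73.8 in control flies, a log2 fold change of -0.15 with an interval from -0.46 to 0.16, and -0.076 without control array 3, -0.095 without control array 2 or -0.24 without control array 1. The upper end was held by mRpS26 (0.16), mRpS5 (0.08), mRpS22 (0.08) and mRpS16 (0.01). Single arrays moved these small values too: mRpS5 was 0.028 without control array 3 and 0.042 without control array 5, and mRpS22 was 0.0062 without control array 1, 0.14 without array 3 of the 2nd exposure, and 0.047 and 0.025 without its arrays 2 and 5. mRpS16 was among the most even members, at 677.1, 679.5, 688.4, 665.3 and 685 on control arrays, and its sign after the 2nd exposure turned to -0.03 with array medians made equal and when array 2 of the 2nd exposure was left out.

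The numbering of the proteins, which reflects their bacterial relatives, gave a further division. Divided by number, 27 large subunit genes carry a number of 36 or below and 13 small subunit genes 21 or below, the ranges used for bacterial ribosomal proteins, and 17 and 12 genes carry higher numbers. The division is approximate, since a few higher numbers, such as that of mRpL47, also stand for relatives of bacterial proteins. After the 2nd exposure against control the median log2 fold change was -0.07 and -0.12 for the lower and the higher numbers of the large subunit, and -0.07 and -0.08 for those of the small subunit. After the 1st exposure the same 4 medians were -0.02, -0.03, 0.00 and 0.03. With mRpS30 and mRpS18A counted in the large subunit, the medians after the 2nd exposure were -0.08 for the large and -0.07 for the small subunit.

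Only mRpL47 and mRpS11 were measured by more than 1 probe set. For mRpL47, whose relatives lie at the tunnel exit, the brighter probe set averaged 1043 ± 87.8 after the 1st exposure and 1138 ± 70.7 in control flies (SD, n = 5 each), a log2 fold change of -0.13. The dimmer one averaged 377.4 ± 42.5 and 355.8 ± 45 in the same treatments, a log2 fold change of 0.09. The probe sets thus disagreed in sign after the 1st exposure, both within their error, and they were on the same side after the 2nd exposure, at -0.15 and -0.08. For mRpS11, a protein of the platform of the small subunit, the brighter and the dimmer probe sets gave 0.00 and -0.05 after the 1st exposure and -0.07 and -0.13 after the 2nd, each against control. Deviations of paired probe sets from their treatment means correlated weakly over the 15 arrays, with r = 0.132 for mRpL47 and r = 0.251 for mRpS11. These values describe how closely a member's array values were followed by its other probe set. Whether both probe sets read the same transcripts was not tested.

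Members of the family deviated together from their treatment means, more within the large than within the small subunit. Over the 15 arrays the mean pairwise correlation of these deviations was 0.244 for the 946 pairs of large subunit genes, 0.149 for the 300 pairs of small subunit genes and 0.195 for the 1100 pairs across subunits, against 0.00629 for all tested probe sets. The arrays, their scaling and their tissue content are shared by all genes, and the values are a description. After removal of the first component of the residuals of all probe sets, which held 25.1% of their variance, the means were 0.127 and 0.102 within the large and the small subunit. mRpS7 and mRpL28 followed the other members most closely, with median correlations of 0.493 and 0.47, and mRpS17 ran against them, at -0.2. Cytosolic ribosomal proteins were more tightly tied, at 0.363, and stayed so without the component, at 0.367. Genes of the oxidative phosphorylation set lay between the family's subunits, at 0.173, and above both without the component, at 0.165. The set was picked by the start of the symbol and mixes genes such as COX4 and COX4L. After the 2nd exposure COX4 had a Signal of 14622.8, 14208.4, 16658.4, 20414.2 and 19119.6 on arrays 1 to 5. COX4L had 3855.2, 3869, 3560.5, 3084.5 and 3308.7 there, so the mean averages genes of which some ran opposite ways.

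Other genes that serve the same ribosome, or that share its setting, were read beside the family. tko and bonsai encode further small subunit proteins of the mitochondrial ribosome under names that the rule does not reach. tko, known for a bang-sensitive mutant, averaged 778.9 ± 87.4 in control flies, 765.8 ± 93.3 at the 1st and 716.7 ± 49.5 at the 2nd exposure (SD, n = 5 each). bonsai averaged 624 ± 39.8 in control flies, 665.2 ± 56.9 at the 1st and 637 ± 48.4 at the 2nd exposure. Neither passed the test. The other genes of mitochondrial gene expression numbered 47 (9 translation factors, 17 aminoacyl-tRNA enzymes, 18 genes that handle mitochondrial DNA or RNA and 3 regulators of nuclear-encoded mitochondrial genes). Of these, 0 passed in any of the 3 contrasts in limma, where 0.362%, 3.63% and 1.76% of all tested probe sets did. At an unadjusted p under 0.05 there were 3, 4 and 2, against 10.5%, 16.4% and 15.6% of all. The analysis of variance on linear Signal called 0, 1 and 1, against 0.311%, 4.12% and 2.03% of all. Median log2 fold changes of the 47 genes were -0.01 after the 1st exposure against control, -0.01 after the 2nd exposure against control and 0.03 between the exposures. The nearest to the threshold was mTerf3, a relative of mitochondrial transcription termination factors that is known to act in ribosome biogenesis and translation in fly mitochondria. It averaged 183.1 ± 13.5 after the 2nd exposure and 216.2 ± 7.06 in control flies (log2 fold change -0.24 ± 0.0643, SE, adjusted p 0.0541 in limma), and 219 ± 15.2 after the 1st exposure. All 5 arrays of the 2nd exposure lay below all 5 control arrays, at 181.3, 178.5, 164.3, 199.8 and 191.7 against 214.7, 227, 212, 218.5 and 208.6.

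The family was also set beside 41 cytosolic ribosomal protein genes and 75 oxidative phosphorylation genes on the array. Both sets were picked by the start of the symbol, among probe sets with 1 annotated symbol. They need not be complete, and they include genes such as RpL24-like and COX4L. After the 2nd exposure against control the median log2 fold change was -0.08 for all 69 members, -0.02 for the cytosolic ribosome and 0.03 for oxidative phosphorylation, and 55 of 69 members, 29 of 41 cytosolic and 26 of 75 oxidative phosphorylation genes were below 0. After the 1st exposure the 3 medians were -0.00, -0.01 and 0.03. Genes of these sets share arrays and vary together, and the differences between sets were not tested. In the 3 contrasts 0.362%, 3.63% and 1.76% of all tested probe sets passed the test in limma, and 10.5%, 16.4% and 15.6% had an unadjusted p under 0.05. Of the oxidative phosphorylation genes 0 passed the test in limma in the 3 contrasts, with 0, 1 and 0 at an unadjusted p under 0.05. With each gene read by its brightest probe set, 1 of 41 cytosolic genes (2.44%) was called after each exposure against control and 0 between the exposures. It was RpL24-like, higher after both exposures, with 2158 ± 146 after the 1st, 1905 ± 166 after the 2nd, against 1491 ± 33.4 in control flies (adjusted p 0.00383 and 0.00933 in limma), whose yeast relative is a factor of ribosome assembly rather than a part of the finished ribosome. A dimmer probe set of RpL3, 1 of 6 cytosolic probe sets not read for their gene, was also called higher, with a Signal of 327.1 ± 40.1 at the 1st and 374.8 ± 26.2 at the 2nd exposure, against 228.5 ± 27 on control arrays (log2 fold changes 0.52 and 0.72, adjusted p 0.0438 and 0.00119 in limma), whereas the brightest probe set of RpL3 gave log2 fold changes of -0.01 and -0.03.

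**Figure D4:**
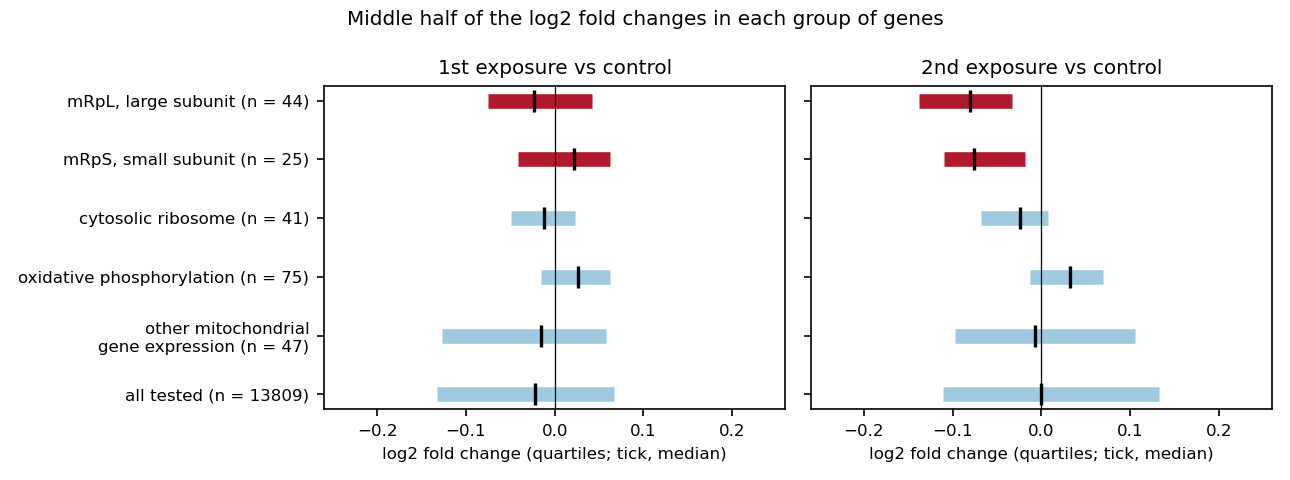
Quartile range (bars) and median (ticks) of log2 fold changes of Signal for the 44 large and 25 small subunit genes (red) and 4 other sets (blue), after the 1st exposure (left) and the 2nd exposure (right), each against control. After the 2nd exposure the bars of both subunits lie below 0, with medians of -0.08 and -0.08, whereas the median over all 13809 tested probe sets is -0.00.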

How the data were processed

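The authors deposited 1 table of MAS 5.0 Signal, a linear intensity per probe set, from 15 Affymetrix Drosophila 2.0 arrays (14 probe pairs per probe set), 5 per treatment, each hybridised with RNA of a separate pool of 30 flies. Detection calls were not used here. Gene names came from the platform annotation: of 18769 probe sets that are not controls, 13647 had 1 symbol, 402 several and 4720 none. The 183 control probe sets were left out. Signal was used as deposited, on the log2 scale, and the 13809 probe sets whose Signal averaged 20 or more were tested in limma 3.58.1 (R 4.3.3), with a mean per treatment, empirical Bayes moderation, 3 contrasts and an F test, and Benjamini-Hochberg adjustment at 0.05. The fit was tested on simulated data. The p-values measure the spread between these pools. Where probe sets shared a gene, the brightest stood for it. Named genes were those called, the 4 highest and 4 lowest per subunit after each exposure, and those with several probe sets. mRpL24, mRpL17, mRpS7, mRpL28, tko, bonsai, mTerf3, RpL24-like, RpL3, COX4 and COX4L were named after their values were seen. Members, lists and tests were chosen with earlier results of these data known. Alternatives were other scalings, filters and pseudocounts, the replicate number as a block, other variance models, linear Signal, and leaving out arrays. The linear Signal alternative took the one-way model of the methods, but with pairwise contrasts, the same Signal filter and Benjamini-Hochberg adjustment in place of their detection filter, q-values and Tukey tests. Figures were drawn with matplotlib 3.10.9.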

Additional observations from a re-analysis of the deposited data

Results flagged for a closer look

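The array values of named members were screened for a lone high or low array within a treatment. The measure was the gap to the nearest other array as a share of the treatment's range. The screen did not include mRpS7 and mRpL28, named later. In both, control array 2 stood alone as the highest control array, at 1587.9 with the nearest at 1365.8 for mRpS7, and at 2718.7 with the nearest at 2428.5 for mRpL28. Of 96 such groups of 5 arrays, 3 were past the 95% limit, and chance alone passes about 1 in 20. In mRpL11, array 2 of the 1st exposure was the highest, at a Signal of 302.1, with the nearest at 238.3. In mRpS26, array 4 of the 2nd exposure was the lowest, at 205, with the nearest at 248.7. In the dimmer probe set of mRpS11, control array 3 was the highest, at 565, with the nearest at 504.2.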

How the results depend on the processing

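With the arrays' medians made equal, a scaling that moved the median log2 fold change of all tested probe sets to 0.04, -0.04 and -0.07 in the 3 contrasts (1st against control, 2nd against control, 2nd against 1st), 2 members were called between the exposures, mRpL50 (-0.38, adjusted p 0.0184 in limma) and mRpS18B (-0.30, adjusted p 0.048), or 2.82% of members against 3.03% of all probe sets, and 1 in the F test, mRpL50 (1.41% against 4.22%). The same scaling gave medians of -0.16 for the large and -0.17 for the small subunit between the exposures and 0.084 for the small subunit after the 1st exposure against control. It also called 1 cytosolic ribosomal protein between the exposures. With the leading component of the fit's residuals added as a covariate, 1 member was called after the 2nd exposure against control, mRpL17 (-0.18, adjusted p 0.0494 in limma), or 1.41% of members against 7.37% of all probe sets. That covariate called 3 cytosolic ribosomal proteins after the 2nd exposure, and 1, 3 and 1 oxidative phosphorylation genes in the 3 contrasts. Of all probe sets it called 0.782%, 7.37% and 4.01% in these contrasts. In every other setting run, 0 members were called, where 0.116% to 5.52% of all probe sets were called in the contrasts and 1.43% to 5.54% in the F test. Without array 5 of the 2nd exposure, the smallest adjusted p of a member after the 2nd exposure against control was 0.168 in limma. The cause was not tested for any of these.

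Over all settings the median of the large subunit lay between -0.12 and -0.06 after the 2nd exposure against control, and that of the small subunit between -0.11 and -0.04. Those of the 1st exposure against control lay between -0.04 and 0.04 and between 0.00 and 0.08, so the sign of the large subunit after the 1st exposure depended on the setting, and those between the exposures lay between -0.16 and -0.03 and between -0.17 and -0.04. The single arrays that moved a median of the 2nd exposure by over 1.5 times were array 1 (-0.03) and array 3 (-0.09) of the 2nd exposure for the large subunit between the exposures, array 2 of the 1st (-0.04) and array 1 of the 2nd exposure (-0.05) for the small subunit between them, and control array 2 (-0.04) for the small subunit against control. Leaving out 1 array at a time, mRpL54 after the 2nd exposure against control ranged from -0.12 to 0.23, negative without control array 1 (-0.12) and without array 5 of the 2nd exposure (-0.01), and was -0.054 without arrays 4 and 5 of the 2nd exposure, a setting chosen after seeing the data. mRpS16 ranged from -0.026 to 0.045, negative without array 2 (-0.026) or array 3 (-0.013) of the 2nd exposure, and was -0.028 with equal array medians. Of the other genes of mitochondrial gene expression, 1 was called after the 2nd exposure, against control and against the 1st exposure, with quantile normalization, equal array medians, a minimum mean Signal of 70, array weights, linear Signal, the component as a covariate and without array 5 of the 1st exposure, and against control alone without array 4, or arrays 4 and 5, of the 2nd exposure (range without 1 array, 0 to 1). Cytosolic ribosomal proteins called after the 2nd exposure against control numbered 2 with a gene's probe sets averaged and 0 without arrays 4 and 5 of the 2nd exposure.

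With the replicate number as a block, 0 members were called, the smallest adjusted p over the members was 0.246, 0.15 and 0.133 in limma in the 3 contrasts, and 32, 420 and 164 of all probe sets were called, against 50, 501 and 243 without it. By the methods, the control and exposed pools of a replicate were drawn from the same starting groups of flies. The labels do not say whether their replicate numbers follow these groups. Deviations of same-numbered arrays correlated between -0.0731 and 0.0982 over 15 pairs, and 3 of 15 arrays correlated best with their own number. The numbers were therefore not taken to pair the arrays, and the main fit left them unpaired. An F test could not be had from 2 treatments alone.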
